A study of Mus musculus with 16 samples.

Results

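The expression of 10 genes of haem breakdown, haem synthesis, iron storage, iron transport and hepcidin was followed in mouse liver lacking Atg7, Nrf2 or both. They were Hmox1, Blvra, Blvrb, Fth1, Ftl1, Alas1, Fech, Slc40a1, Tfrc and Hamp, chosen by name, and the 13 probes that carry these names were taken from the scanner files. The arrays held 41174 probes for 27975 gene names, and the 16382 genes with a probe that was well above background in 4 or more of 24 channels were tested. All 10 genes were among them, each with a probe well above background in 24 of 24 channels and saturated in none. One second probe of Blvra was above background in 0 of 24 channels and was left out.

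The study hybridised liver RNA of 2 genotypes to each two-colour array and repeated every hybridisation with the dyes exchanged, which gave 16 arrays and 8 experiments. Nrf2-/- liver was set against wild type in experiments 1 and 4, Atg7F/F:Mx1-Cre liver (Atg7 cKO) in experiments 2 and 5, and Atg7F/F:Mx1-Cre:Nrf2-/- liver (double knockout) in experiments 3 and 6. In experiments 7 and 8 double knockout and Atg7 cKO RNA shared an array. By the design text the Mx1-Cre mice and their controls were given pIpC, which switches on the Mx1 promoter, at 8 weeks of age, and liver RNA was taken 4 weeks later. The growth protocol instead describes pIpC treatment lasting 4 weeks, and the labels do not settle which schedule was used. The Mx1 promoter answers to interferon and is active in blood and immune cells as well as in hepatocytes, so its use does not limit deletion to hepatocytes. The labels call the controls wild type and do not say whether they carried the floxed Atg7 allele. The labels do not say how many animals stand behind an experiment or whether an RNA extract was used again, so the p-values below measure the spread between experiments, which may be partly technical.

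Haem oxygenase opens the haem ring and releases iron, carbon monoxide and biliverdin, which biliverdin reductase turns into bilirubin. The freed iron is stored in ferritin or leaves the cell through ferroportin, and hepcidin, a peptide hormone secreted by hepatocytes, removes ferroportin from the cell surface. Several of these genes are known targets of Nrf2, the transcription factor that Keap1 holds down and that accumulates when autophagy fails and p62 builds up. Ferritin, ferroportin and transferrin receptor are also controlled after transcription by iron regulatory proteins, which an RNA measurement records only in part.

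Mice carry a pair of neighbouring hepcidin genes on chromosome 7, Hamp and Hamp2, and the array has a probe for each. The sequences are shown because the 2 genes went in opposite directions in the double knockout, and a probe that could not tell them apart would have mixed them. Both probes are 60 bases long and lie on the minus strand, at chr7:31727490-31727549 for Hamp and chr7:31707520-31707579 for Hamp2 in build mm9. Their shared stretch, up to the stop triplet, is written 5′ to 3′ with the bases that differ in capitals.
Hamp: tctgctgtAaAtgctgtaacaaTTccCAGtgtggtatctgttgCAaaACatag
Hamp2: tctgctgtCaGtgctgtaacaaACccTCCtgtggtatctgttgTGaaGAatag
Of these 53 bases 11 differed and 42 were the same, and cross-hybridisation between the hepcidin genes was not tested.

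The promoters of the hepcidin genes differ as well. The last 120 bases before each start, from RefSeq in build GRCm38.p6, lie at chr7:30944030-30944149 for Hamp and chr7:30924182-30924301 for Hamp2, on the minus strand. Capitals mark matches to GGCGCC, the core of the BMP-responsive element, and to TTCNNNGAA, the STAT element through which interleukin 6 is known to raise hepcidin.
Hamp: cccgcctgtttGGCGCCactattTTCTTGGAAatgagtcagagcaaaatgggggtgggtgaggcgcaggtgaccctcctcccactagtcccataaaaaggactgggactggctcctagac
Hamp2: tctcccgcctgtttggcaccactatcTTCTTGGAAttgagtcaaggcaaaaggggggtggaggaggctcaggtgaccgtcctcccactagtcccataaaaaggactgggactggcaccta
The Hamp window held both motifs, and the Hamp2 window held the STAT motif and no match to GGCGCC. Counted over both strands and the 250 bases before the start, GGCGCC was in 9.59% and TTCNNNGAA in 7.02% of the 32851 RefSeq windows. A window was matched for 7 of the 10 genes, and none was matched for Hmox1, Slc40a1 and Fech. Among these 7, GGCGCC was also found in Tfrc, TTCNNNGAA in Alas1, and TGACNNNGC, the core of the antioxidant response element to which Nrf2 binds, in Blvra. The last of these motifs was in 10.2% of all windows. A match describes the letters and does not show that a factor binds.

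Before the genes themselves, the targeted genes and the sets of arrays were checked. The array has 3 probes for Nfe2l2, the gene of Nrf2, and the brightest read -3.79 and -3.97 (log2 ratio) in the Nrf2 KO, -3.31 and -4.10 in the double knockout and 1.26 and 1.13 in Atg7 cKO. An Atg7 probe read -0.79 and -0.82 in Atg7 cKO and -0.73 and -0.73 in the double knockout, against -0.10 and 0.00 in the Nrf2 KO. Another Nfe2l2 probe read -3.04 and -3.05 in the Nrf2 KO, but the third read -0.09 and -0.03 there and -0.06 and 0.17 with Atg7 lost as well. The other Atg7 probe did not fall, at -0.16 and 0.01 in Atg7 cKO and -0.05 and -0.01 with both genes lost. Which probes lie in the deleted parts was not checked. Xist, the transcript of the inactive X chromosome, was above background in 0 of 12 channels of experiments 1 to 3 and in 12 of 12 channels of experiments 4 to 6, so each comparison with wild type holds 1 experiment of either kind. The labels give no sex.

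Loss of Nrf2 alone moved none of the 10 genes past the threshold. In limma's test with Benjamini-Hochberg adjustment over all 16382 genes, 0 of 10 were called at an adjusted p of 0.05, and 2 of all genes were (0.0122%). At an unadjusted p of 0.05 the counts were 3 of 10 and 606 of all genes, and limma was the test used throughout. Those 3 were Ftl1, Blvrb and Tfrc, each below 0 in both experiments. Ftl1, the light chain of ferritin, read -0.47 and -0.63 (mean -0.55 ± 0.11, SD, n = 2; adjusted p = 0.772). Blvrb, which reduces biliverdin and flavins, read -0.43 and -0.30, and Tfrc, the transferrin receptor that takes up iron, -0.34 and -0.24. Alas1, the first and rate-limiting enzyme of haem synthesis in liver, read -0.42 and -0.50, and Fth1, the heavy chain of ferritin, -0.20 and -0.42. For Fth1 the 2 dye orientations had opposite signs, at 0.34 and -0.74 in experiment 1 and 0.28 and -1.12 in experiment 4. Hmox1, the inducible haem oxygenase, stood on both sides of 0, at 0.20 and -0.10. Hamp read 0.66 and 0.18, with 0.49 and -0.12 in the 2 dye orientations of experiment 4. Slc40a1 read 0.02 and -0.11, Fech -0.06 and 0.02 and Blvra -0.08 and 0.01.

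Loss of Atg7 raised 7 of the 10 genes and lowered none. Over all genes 23.4% were called higher and 16.3% lower, so the 7 of 10 stood beside a background in which a large share of genes moved. The median log2 ratio of the 10 was 0.996 and that of all genes 0.0035. The 7 genes kept their call in each of the alternatives that were run, each experiment left out in turn included. The share of calls that were higher moved from 59% to 90.8% when arrays were centred on the median in place of loess, and to 48.7% on Agilent's processed signals. Median centring also moved the median of all genes by 0.21, to 0.21, and values under it are read against that shift.

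Blvrb had the largest ratio of the 10. Its probe, at chr7:28250924-28250983 in mm9, gave log2 ratios of 1.94 and 1.97 (mean 1.96 ± 0.02, SD, n = 2; 3.88-fold; adjusted p = 4.66e-04). Channel signals in wild type ran from 1494 to 1958 with a median of 1643, and those in Atg7 cKO were 5873 and 5939, well apart from them. Hmox1 rose with it, by 1.28 and 1.33 (2.48-fold; adjusted p = 8.48e-04), from wild-type signals of 262 to 339 to signals of 691 and 853. Blvra, the other biliverdin reductase, read 0.03 and 0.38 and did not pass (adjusted p = 0.158), but passed under median centring (0.61, or 0.39 above the median of all genes; adjusted p = 0.0105). Hmox2, the constitutive haem oxygenase, was at -0.13 and 0.10, and Ugt1a1, which conjugates bilirubin for excretion, fell by 0.83 and 1.49 (adjusted p = 0.00539).

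Both ferritin chains rose. Fth1, measured at chr19:10059485-10059544, gained 1.33 and 1.16 (2.36-fold; adjusted p = 0.00336), and Ftl1, at chr7:52714977-52715036, gained 0.94 and 0.70 (1.76-fold; adjusted p = 0.00418). The 2 dye orientations of Fth1 differed widely, at 1.88 and 0.77 in experiment 2 and 2.01 and 0.30 in experiment 5. The means over the dye swap hide that difference. The signals of Fth1 were 24370 and 24470 in Atg7 cKO against 9769 to 18140 in wild type, and those of Ftl1 were 12600 and 13120 against 6865 to 8558. Neither gene's groups overlapped. The share of all genes without overlap was not counted, and 23.4% of all genes were called higher in this comparison. The ferritin chains have near-identical processed copies, and a probe annotated to one of them, Ftl2-ps, followed Ftl1 closely (0.89 in Atg7 cKO, -0.75 in the double knockout), so signal at the Ftl1 probe may be shared between copies. The other 4 genes of the ferritin list (Ftmt, Pcbp1, Pcbp2 and Ncoa4, the receptor that delivers ferritin to autophagosomes) did not pass in this comparison, with Ncoa4 at 0.10.

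Slc40a1, the iron exporter ferroportin, rose by 1.58 and 1.08 (2.51-fold; adjusted p = 0.0017), and Tfrc by 0.85 and 0.90 (1.83-fold; adjusted p = 0.00336). Tfrc has 10 spots on each array, and their log2 ratios ran from 0.69 to 1.06 over the 4 arrays of this comparison. Its signals were 216 and 280 against 114 to 162 in wild type, where background offsets compress a ratio, and Agilent's processed signals gave a mean of 1.13. Alas1 rose by 1.55 in experiment 2 and 0.69 in experiment 5 (mean 1.12 ± 0.61, SD, n = 2; adjusted p = 0.0115). A second Alas1 probe read 1.43 and 0.61. In wild-type liver experiments 1 to 3 gave Alas1 signals of 1424 to 1529 and experiments 4 to 6 signals of 2803 to 3295, while in Atg7 cKO it was 4243 and 4510 in the 2 kinds of experiment. The smaller ratio thus went with the higher wild-type level.

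Fech, which inserts iron into protoporphyrin in the last step of haem synthesis, did not pass in Atg7 cKO, with ratios of -0.03 and -0.03 (adjusted p = 0.817). Under median centring it read 0.42 (adjusted p = 0.0261), or 0.20 above the median of all genes under that setting. Hamp averaged below 0 in both experiments, at -0.76 and -0.18 (mean -0.47 ± 0.41, SD, n = 2), and did not pass (adjusted p = 0.0868). The 2 dye orientations of experiment 5 had opposite signs for Hamp, at 0.17 and -0.53.

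**Figure D1:**
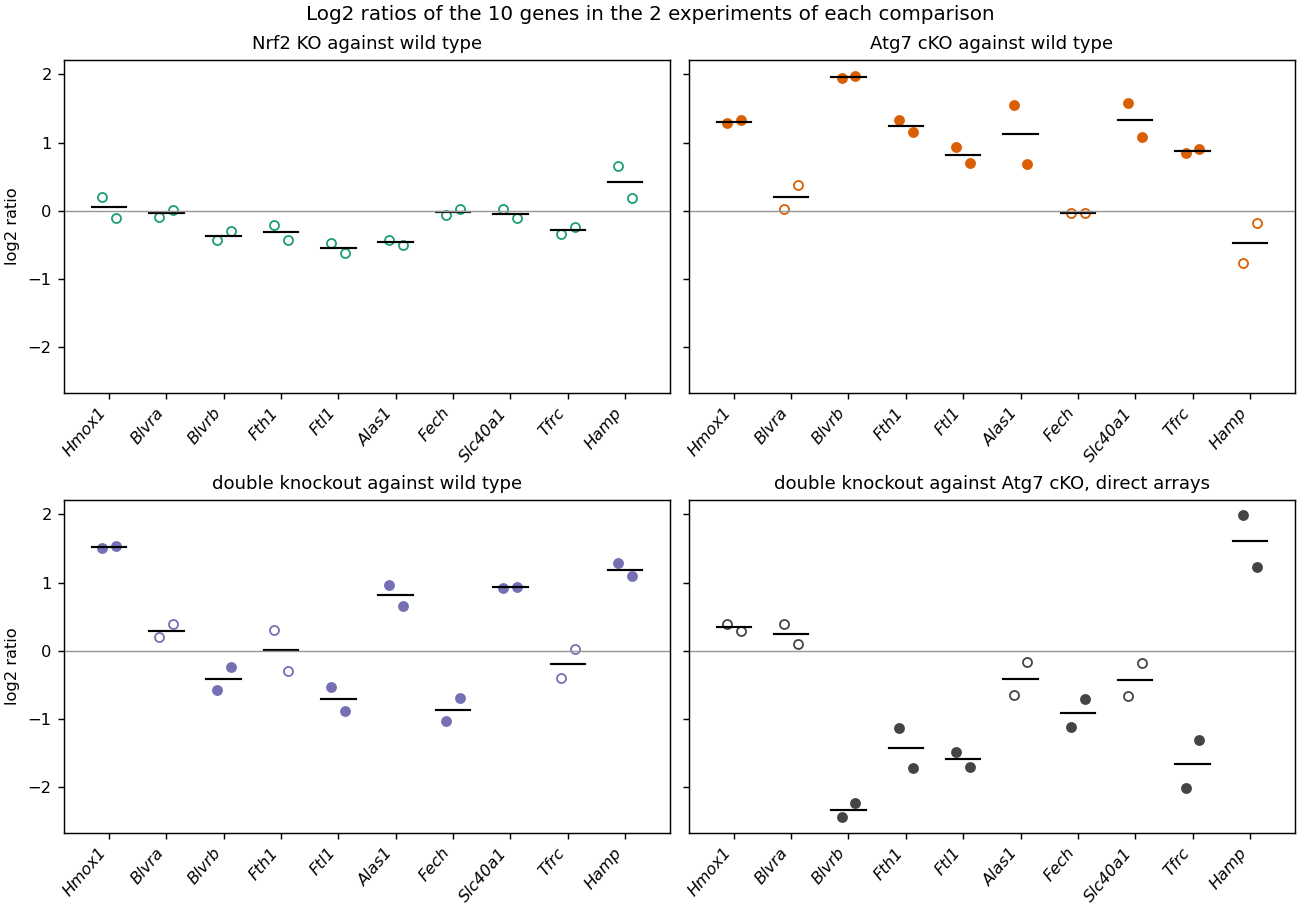
Log2 ratio of each of the 10 genes in the 2 experiments of each comparison (points; filled where limma's adjusted p was under 0.05) with their mean (line). In Atg7 cKO 7 genes lie above 0 and filled, with Blvrb highest at 1.96; in the direct arrays Blvrb is lowest at -2.34 and Hamp highest at 1.61.

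In the double knockout the 10 genes split. Against wild type, 4 were called higher (Hmox1, Hamp, Slc40a1 and Alas1) and 3 lower (Fech, Ftl1 and Blvrb), beside 21.4% higher and 16% lower over all genes. The share of calls that were higher was 57.3%, against 85.7% under median centring and 46.6% on processed signals. The median log2 ratio of the 10 was 0.15.

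Hmox1 and Slc40a1 stayed high. Hmox1 gained 1.52 and 1.54 (2.88-fold; adjusted p = 6.92e-04), with signals of 789 and 965, above every wild-type channel. Slc40a1 gained 0.93 and 0.94 (1.91-fold; adjusted p = 0.00413), and both of its signals, 2719 and 3435, were above the wild-type range of 1138 to 1859. Alas1 was at 0.97 and 0.66 (mean 0.81; adjusted p = 0.0315), a call that was lost without experiment 3 (0.66, adjusted p = 0.209), without experiment 6 (0.97, adjusted p = 0.101) and without experiment 1 or 4 (adjusted p = 0.0686). A setting with no filter on dim probes also ended it (adjusted p = 0.0517).

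Blvrb and both ferritin chains no longer stood above wild type. Blvrb read -0.58 and -0.23 (mean -0.41 ± 0.25, SD, n = 2; adjusted p = 0.0221), a call that was lost without experiment 3 (-0.23, adjusted p = 0.129) and under median centring (-0.17, adjusted p = 0.248). Its signals in the double knockout were 1171 and 1522, so one of them lay inside the wild-type range. Fth1 stood on both sides of 0, at 0.31 and -0.29 (adjusted p = 0.968). By dye orientation Fth1 read 0.78 and -0.16 in experiment 3 and 0.50 and -1.07 in experiment 6. Ftl1 fell by 0.53 and 0.88 (mean -0.71; 1.63-fold lower; adjusted p = 0.00662), to signals of 4076 and 5927, below all 6 wild-type channels. Median centring left it at -0.59, just short of the threshold (adjusted p = 0.0522). Tfrc read -0.41 and 0.02 (adjusted p = 0.215), and without experiment 6 its ratio of -0.41 passed (adjusted p = 0.0333).

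Fech and Hamp changed in the double knockout after not passing in either single knockout. Fech fell by 1.03 and 0.70 (1.82-fold lower; adjusted p = 0.00212), to signals of 586 and 642 against 1031 to 1194 in wild type, and a second Fech probe read -0.90 and -0.61. Hamp gained 1.29 and 1.09 (mean 1.19 ± 0.14, SD, n = 2; 2.28-fold; adjusted p = 0.00598). By dye orientation Hamp read 1.73 and 0.85 in experiment 3 and 1.60 and 0.59 in experiment 6. Its signals were 11070 and 14220, above the wild-type range of 5192 to 6794. Without experiment 3 the ratio of 1.09 did not pass (adjusted p = 0.061). Blvra read 0.20 and 0.40 and did not pass (adjusted p = 0.0682), but passed without experiment 2 or 5 (adjusted p = 0.0333), in the fit over single arrays with a dye effect (adjusted p = 0.0146) and under median centring (0.59, or 0.45 above the median of all genes; adjusted p = 0.0146).

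**Figure D2:**
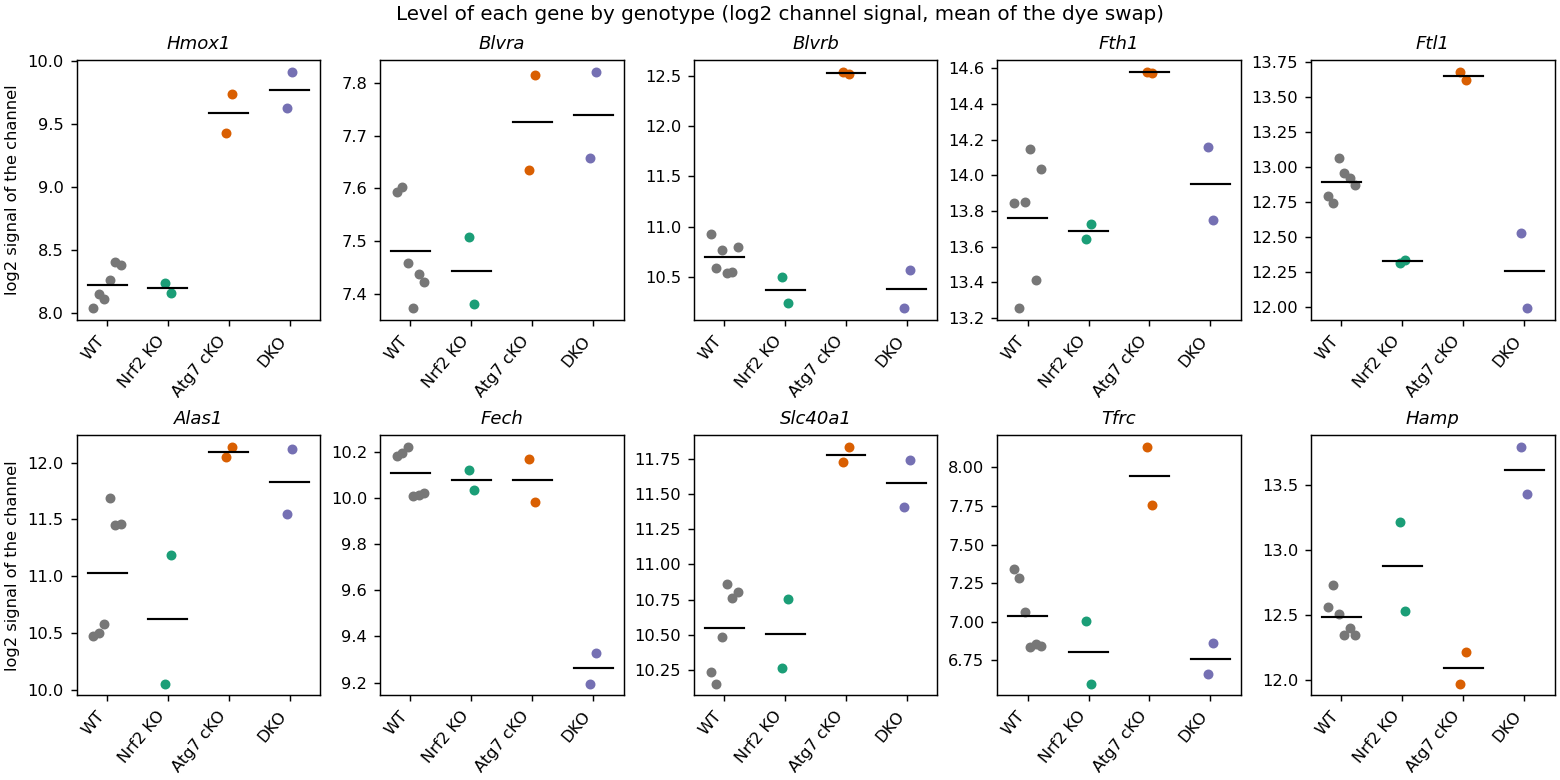
Level of each gene as log2 channel signal, one point per experiment (mean of its dye swap) for 6 wild-type channels and 2 of each knockout, with group means as lines; each panel has its own scale. Blvrb, Fth1, Ftl1 and Tfrc stand highest in Atg7 cKO, Fech lowest and Hamp highest in the double knockout (DKO).

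Levels in the 6 wild-type channels also differed between the arrays with and without Xist. Alas1, Slc40a1 and Hmox1 were higher in each of experiments 4 to 6 than in any of experiments 1 to 3, with Slc40a1 at 1734 to 1859 against 1138 to 1429. Tfrc, Fech, Blvra and Hamp were lower there, with Tfrc at 114 to 116 against 134 to 162 and Hamp at 5192 to 5390 against 5817 to 6794. Blvrb, Fth1 and Ftl1 overlapped between the sets. The share of all genes that separate in this way was not counted, so the split cannot be read as particular to these genes. These sets were defined by the arrays and were not the study's groups, so no test was made on them. A block for the set kept the 7 calls in Atg7 cKO and the 7 in the double knockout, and added Blvra to each (adjusted p = 0.0465 and 0.0168).

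Experiments 7 and 8 set double knockout liver directly against Atg7 cKO liver. Of the 10 genes, 5 were lower in the double knockout than in Atg7 cKO and 1 was higher, beside 8.08% lower and 6.73% higher over all genes. The 5 were Blvrb, Ftl1, Fth1, Tfrc and Fech, and the 1 was Hamp. Only the deposited ratios of these arrays were used here, with no scanner signals. The brightest Nfe2l2 probe read -6.31 and -6.68 on them. The Atg7 probe that fell in Atg7 cKO read -0.03 and 1.03 there, and the other Atg7 probe 0.82 and 0.21. Whether both genotypes had lost Atg7 to the same degree on these arrays was not tested.

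Blvrb read -2.44 and -2.23 on the log2 scale (mean -2.34 ± 0.15, SD, n = 2; 5.05-fold lower; adjusted p = 7.52e-04). Ftl1 read -1.49 and -1.70 (3.02-fold lower; adjusted p = 0.00388), and these 2 genes kept their calls when either experiment was left out. Fth1 read -1.13 and -1.71 (mean -1.42; adjusted p = 0.0162), a call lost without experiment 7 (-1.71, adjusted p = 0.0756) and without experiment 8 (-1.13, adjusted p = 0.0901). Tfrc read -2.02 and -1.31 (mean -1.66; adjusted p = 0.0123), and Fech -1.12 and -0.70 (mean -0.91; adjusted p = 0.015). Hamp was higher by 1.99 and 1.23 (mean 1.61 ± 0.54, SD, n = 2; 3.05-fold; adjusted p = 0.0123). Without experiment 7 the calls of Tfrc (adjusted p = 0.117), Fech (adjusted p = 0.142) and Hamp (adjusted p = 0.111) were lost, and each of these genes had its larger ratio in experiment 7. Fitted on experiments 7 and 8 alone, 1 of the 10 genes passed, Blvrb (adjusted p = 0.047).

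The other 4 genes did not pass on the direct arrays. Hmox1 was above 0 in both experiments, at 0.39 and 0.29 (mean 0.34, SE 0.11; adjusted p = 0.0894), and Blvra at 0.39 and 0.11 (adjusted p = 0.264). Slc40a1 read -0.67 and -0.17 (adjusted p = 0.141) and Alas1 -0.65 and -0.16 (adjusted p = 0.268). A fit over single arrays with a dye effect called Hmox1 (adjusted p = 0.0473) and Slc40a1 (adjusted p = 0.0214) as well.

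The same difference can be formed through wild type, from experiments 2, 3, 5 and 6. It gave the same direction for each of the 10 genes and called the same 6, beside 3.2% of all genes lower and 1.75% higher. Blvrb stood at -2.36 (adjusted p = 0.00432), Ftl1 at -1.52 (adjusted p = 0.0138), Tfrc at -1.06 (adjusted p = 0.0288), Fech at -0.83 (adjusted p = 0.031), Fth1 at -1.23 (adjusted p = 0.0433) and Hamp at 1.66 (adjusted p = 0.0328). The Tfrc difference was larger on the direct arrays, and processed signals of the wild-type arrays gave -1.70 through wild type. Of these 6 calls, 1 remained without experiment 1 or 4, 2 without experiment 2, 3 without experiment 3 or 5, and 4 without experiment 6. Blvrb kept its call each time, with the highest adjusted p at 0.0294 (without experiment 1 or 4). With slide as a block 2 remained, Blvrb and Ftl1, and on processed signals 1, Blvrb (adjusted p = 0.016).

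**Figure D3:**
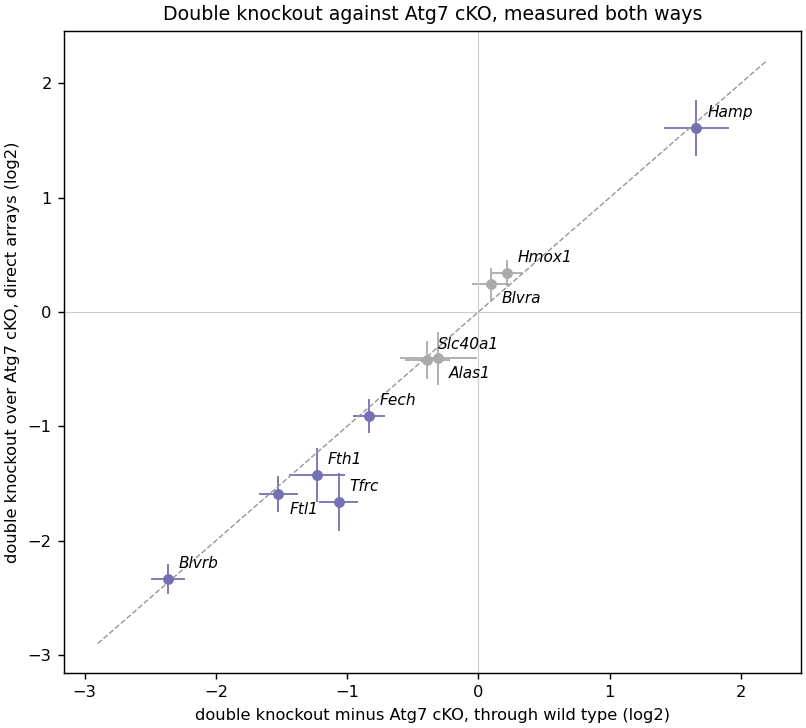
Log2 difference between double knockout and Atg7 cKO for the 10 genes, measured on the direct arrays (vertical) and through wild type (horizontal), with limma's SE as bars; filled violet points passed on the direct arrays and the dashed line marks equality. Blvrb lies at -2.36 and -2.34, Hamp at 1.66 and 1.61, and Tfrc furthest below the line, at -1.06 and -1.66.

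Whether Nrf2 loss acted differently with and without Atg7 was tested as the departure of the double knockout from the sum of the single knockouts. Blvrb was the 1 gene of the 10 that passed, beside 0.592% of all genes below the sum. Its departure was -2.0 on the log2 scale (SE 0.16; 4.0-fold below the sum; adjusted p = 0.0236), since Nrf2 loss read -0.36 with Atg7 present and -2.36 without it. The call was lost without experiment 1 (-2.06, adjusted p = 0.21), experiment 2 (-2.01, adjusted p = 0.0649), experiment 3 (-1.83, adjusted p = 0.0563), experiment 4 (-1.94, adjusted p = 0.242) or experiment 5 (-1.99, adjusted p = 0.0638), with slide as a block (adjusted p = 0.0866) and on processed signals (adjusted p = 0.0976). Of the others, Ftl1 stood at -0.97 (adjusted p = 0.114), Fth1 at -0.92 (0.219), Fech at -0.82 (0.102), Tfrc at -0.78 (0.165) and Hamp at 1.24 (0.172), where the figures in brackets are adjusted p-values. A block for the set called Ftl1 as well (adjusted p = 0.0277), and the fit over single arrays with a dye effect added Ftl1, Fech, Tfrc and Hamp. For Hmox1 the departure was 0.17 (SE 0.14; adjusted p = 0.667) and for Slc40a1 -0.35 (SE 0.21; adjusted p = 0.544).

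The pathways around these genes were read from lists that held 70 further measured genes. Of these, 16 were called higher and 15 lower in Atg7 cKO, 15 higher and 23 lower in the double knockout, 9 higher and 12 lower on the direct arrays, and 0 higher and 1 lower (Nfe2l2 itself) in the Nrf2 KO. Over all genes 23.4% were higher and 16.3% lower in Atg7 cKO, the double knockout had 21.4% and 16%, and the direct arrays had 6.73% and 8.08%, and the counts over the 70 genes in Atg7 cKO lay near those shares. The lists below are to be read against the same shares. Among genes of haem synthesis, Cpox, Ppox and Alad were lower and Alas1 higher in Atg7 cKO, and Fech, Urod and Alad were lower in the double knockout. Hmox2 rose by 0.44 and 0.51 against wild type in the double knockout (adjusted p = 0.0062) and by 0.63 and 0.46 on the direct arrays (adjusted p = 0.0272), where Hmox1 did not pass.

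Of the 9 genes that scavenge or move haem, 4 were higher in Atg7 cKO (Slc48a1, Hp, Hpx and Flvcr1) and 2 lower (Cd163 and Lrp1), beside 23.4% and 16.3% of all genes. Slc48a1, a haem transporter of lysosomes, gained 1.89 and 1.81 in Atg7 cKO (adjusted p = 1.08e-04) and was close to wild type with both genes lost, at -0.11 and -0.16 (adjusted p = 0.092). The direct arrays gave -2.26 and -2.05 (adjusted p = 5.73e-04), and like Blvrb the gene lay below the sum of the single knockouts (-1.92; adjusted p = 0.00397). Haptoglobin (Hp) and haemopexin (Hpx), plasma proteins that bind free haemoglobin and haem, were higher in both genotypes. Hpx gained 0.88 and 1.03 in Atg7 cKO and 3.41 and 2.79 in the double knockout (adjusted p = 7.24e-04), and Hp gained 1.07 and 1.52, then 3.0 and 2.90 (adjusted p = 4.50e-04). Abcg2, an efflux pump, and Pgrmc1, a haem-binding membrane protein, were lower on the direct arrays, at means of -2.01 and -1.90, and through wild type Abcg2 did not pass (-1.90, adjusted p = 0.0855).

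Genes of iron uptake and export moved in both directions. Heph, a ferroxidase that works with ferroportin, gained 1.37 and 1.69 in Atg7 cKO and read -0.03 and -0.03 in the double knockout (adjusted p = 0.826). Its probe was above background in 4 of 4 Atg7 cKO channels, 3 of 4 of the double knockout and 5 of 12 of wild type, so its ratios to wild type are compressed, and the difference was -4.05 on the direct arrays, which have no background flags here, against -1.56 through wild type. Cp, the plasma ferroxidase, gained 0.34 and 0.77 in Atg7 cKO (adjusted p = 0.0234) and 2.38 and 2.05 in the double knockout (adjusted p = 7.41e-04). It was higher on the direct arrays at a mean of 1.59. Steap4, a ferrireductase, gained 0.68 and 0.66 in Atg7 cKO (adjusted p = 0.0278) and 2.65 and 1.92 in the double knockout. Slc39a14, which takes up iron not bound to transferrin, fell by 0.99 and 0.78 in Atg7 cKO. It gained 0.29 and 0.33 in the double knockout (adjusted p = 0.03) and was higher by 1.72 and 1.36 on the direct arrays. Tfr2, a sensor of transferrin iron, fell by 0.97 and 1.02 in Atg7 cKO, and Aco1, iron regulatory protein 1, by 0.36 and 0.52. Both were also lower in the double knockout, Tfr2 at -0.56 and -0.49 (adjusted p = 0.00362) and Aco1 at -0.68 and -0.64 (adjusted p = 0.00218).

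In the list of 9 mitochondrial iron and iron-sulfur cluster genes, 7 were lower in the double knockout and none higher, against 2 higher and 1 lower in Atg7 cKO. Over all genes 16% were lower and 21.4% higher in the double knockout. Abcb6, a porphyrin transporter, fell by 1.36 and 1.37 in the double knockout (adjusted p = 7.19e-04) and read 0.02 and -0.24 in Atg7 cKO. It also lay below the sum of the single knockouts (-1.22; adjusted p = 0.0392). Slc25a37, which brings iron into mitochondria, and Glrx5, a carrier of iron-sulfur clusters, were lower on the direct arrays at means of -0.89 and -0.89. Glrx5 was higher than wild type in Atg7 cKO, by 0.40 and 0.38 (adjusted p = 0.00697).

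**Figure D4:**
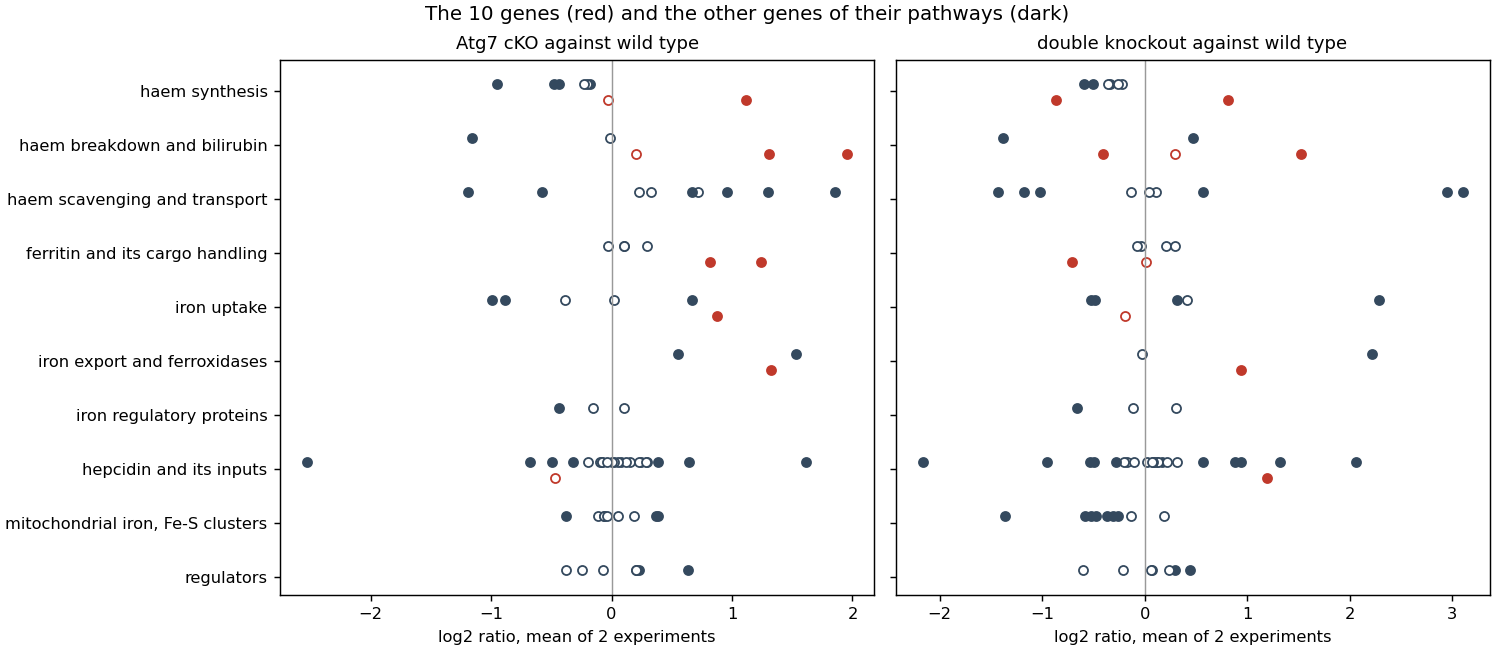
Mean log2 ratio to wild type of the 10 genes (red) and of the other genes of their pathway lists (dark), by list, in Atg7 cKO (left) and the double knockout (right), 2 experiments each; filled points passed at an adjusted p of 0.05, and Nfe2l2 is left out. The rightmost dark points of the right panel are Hpx at 3.10 and Hp at 2.95, and the mitochondrial list lies mostly left of 0 there.

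Hepcidin answers in hepatocytes to BMP6 through SMAD proteins and to interleukin 6 through STAT3, and the genes of that list, 23 measured with Hamp among them, were set beside it. In the double knockout 7 of the 23 genes were higher (Id1, Socs3, Hamp, Smad1, Stat3, Il6st and Atoh8) and 5 lower (Hamp2, Tmprss6, Hfe, Hjv and Il6ra), beside 21.4% and 16% of all genes. Double knockout liver had more Stat3 than wild type, by 1.06 and 0.70 (adjusted p = 0.00448), and more than Atg7 cKO by 1.32 and 0.61 (adjusted p = 0.0304), while Stat3 read -0.20 and 0.13 in Atg7 cKO. Socs3, a STAT3 target, gained 1.72 and 0.93 in the double knockout (adjusted p = 0.00821). Id1, a target of BMP signalling, gained 1.41 and 1.82 in Atg7 cKO and 2.31 and 1.81 in the double knockout. Smad6 and Smad7 of the same list passed in neither genotype, with means of 0.00 (adjusted p = 0.962) and 0.23 (adjusted p = 0.178) in Atg7 cKO. The part of either signal in the level of Hamp was not tested. Bmp6 gained 0.52 and 0.77 in Atg7 cKO (adjusted p = 0.00267) and was lower on the direct arrays at a mean of -2.25, against -0.84 through wild type, with its probe above background in 3 of 4 double knockout channels. Hfe and Hjv, which assist BMP sensing, were lower than wild type in the double knockout, at means of -0.54 and -0.49, and lower on the direct arrays, at -0.50 and -0.83. Il6 passed on the direct arrays (1.21, adjusted p = 0.015), but its probe was well above background in 4 of the 24 channels of experiments 1 to 6, so its mean ratios to wild type (0.05 in Atg7 cKO, 0.13 in double knockout liver) have no measured wild-type level behind them.

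Hamp2 went opposite to Hamp in the double knockout against wild type, but lay on the same side of 0 in both single knockouts. In the double knockout Hamp2 read -1.79 and -2.54 (mean -2.17; adjusted p = 0.0493), where Hamp gained 1.29 and 1.09. In Atg7 cKO Hamp2 read -1.28 and -3.77 (mean -2.53; adjusted p = 0.0305), and Hamp -0.76 and -0.18. In the Nrf2 KO Hamp2 read 2.02 and 0.71, and Hamp 0.66 and 0.18. On the direct arrays Hamp2 read -0.82 and 2.65, and Hamp 1.99 and 1.23. Hamp2 did not pass in these last 2 comparisons. The spread between the 2 experiments was much wider for Hamp2 than for Hamp in each comparison.

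**Figure D5:**
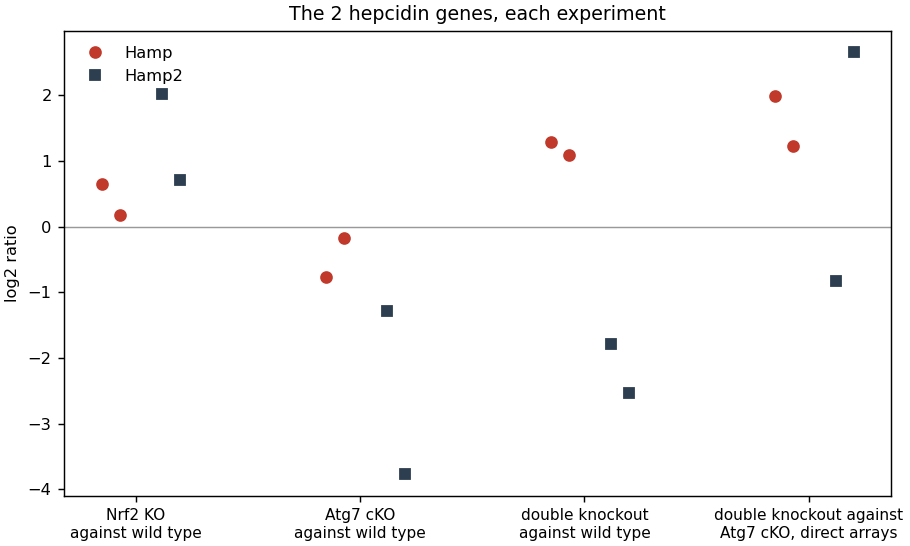
Log2 ratios of Hamp (red circles) and Hamp2 (dark squares) in each of the 8 experiments, by comparison. In the double knockout against wild type both Hamp points lie above 1 and both Hamp2 points below -1.7.

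Liver RNA comes from several cell types, and fewer cells of a type cannot be told apart from less RNA per cell. Over all genes 23.4% were called higher and 16.3% lower in Atg7 cKO, and 21.4% and 16% in the double knockout. The marker counts below are to be read against these shares. Marker genes of Kupffer cells and macrophages, which recycle haem iron and express Hmox1 and Slc40a1, were higher for 12 of 14 genes in Atg7 cKO and for 13 of 14 in the double knockout, with Cd163 lower in both. Their summed signal was 7930 to 10660 in wild type, 9627 to 10030 in the Nrf2 KO, 30220 to 49030 in Atg7 cKO and 57360 to 61440 in the double knockout, none of them at background. Hepatocyte markers were lower for 6 of 7 genes in Atg7 cKO and 4 of 7 in the double knockout, with a summed signal of 72160 to 138200 in wild type, 43930 to 48740 and 48340 to 79300. Of 6 measured erythroid markers 1, Klf1, was lower in both, and 2 of 5 neutrophil markers, S100a8 and S100a9, were higher in both. The other neutrophil markers were near background in wild type. Camp and Ltf were above it in 0 of 12 wild-type channels and Mpo in 4 of 12. Of 6 stellate cell markers Col1a1, Col3a1 and Acta2 were higher in both, with a summed signal of 1218 to 1390 in wild type, 2651 to 2849 in Atg7 cKO and 2376 to 2589 in the double knockout. Of 7 markers of sinusoidal endothelium 2 were higher (Lyve1 and Cdh5) and 1 lower (Flt1) in Atg7 cKO, and 1 higher (Cdh5) and 4 lower (Clec4g, Flt1, Kdr and Stab2) in the double knockout. Of 7 lymphocyte markers 0 passed in Atg7 cKO and 3 were higher in the double knockout (Cd3d, Cd3g and Cd8a), and of 4 cholangiocyte markers Sox9 was higher in both. The Cd8a probe was above background in 0 of 12 wild-type channels and 4 of 4 of the double knockout. Its ratio thus has no measured wild-type level behind it. In Atg7 cKO the counts of erythroid, endothelial and cholangiocyte markers lay near the shares of all genes. The part of the marker shifts in the ratios of the 10 genes was not tested.

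For the 10 genes, genes with the nearest pattern over the 8 experiments of the deposited ratios were found by Euclidean distance among 16382 genes. The points share arrays and controls, so the distances are descriptive. Blvrb had Slc48a1 (distance 0.6) and Usp20 (0.676), and Ftl1 had Ftl2-ps (0.211) and S100a10 (0.49). Fth1 lay nearest to an unnamed probe, NAP014312-001 (0.479), and to Txn1 (0.635), which encodes thioredoxin 1. Tfrc lay nearest to Spc24 (0.59) and to NAP026424-1 (0.634), Fech to Aldh5a1 (0.32) and Gpd1l (0.324), and Hamp to AK077974 (0.785) and Fgb (0.833), the fibrinogen beta chain. Hmox1 lay nearest to Ift57 (0.37) and Marcks (0.378), Slc40a1 to Zmat3 (0.481) and Gja1 (0.502), Alas1 to D16Ertd472e (0.627) and Aifm2 (0.687), and Blvra to Itpripl1 (0.2).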

How the data were processed

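Liver RNA was measured on 16 two-colour Agilent arrays. Spot intensities of 12 arrays and their log10 ratios were deposited by the authors from Agilent Feature Extraction 9.5.1.1, per the file headers (9.5.1 per the submitters' processing notes), and probe coordinates are mm9, per the file headers. The deposited value table held log10 ratios of all 16 arrays. For the 12 arrays it equalled the scanner ratios to within 0.005, every column had a median of 0, and the dyes in the labels gave the direction, so experiments 7 and 8, with the table alone, were read the same way.

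Intensities were background-corrected with normexp (offset 50) and loess-normalised with limma 3.58.1 in R 4.3.3, outlier spots were dropped, and spots of a probe and the 2 arrays of a dye swap were averaged on the log2 scale. Of 41174 probes, 24844 were named by accession and 7855 by symbol (GRCm38.p6), and 8475 kept the deposited name. The brightest probe stood for a gene. A limma fit gave 3 group means (experiments 1 to 6; 3 residual degrees of freedom), and a fit to the deposited ratios gave 4 group means (experiments 1 to 8; 4 residual degrees of freedom). Signals are channel levels after Aquantile normalisation, and the number of arrays limits precision. How many of all genes had knockout signals outside their wild-type range was not counted. The median spot read 41.8 to 55.6 before correction, with 43.4% to 57.2% of spots well above background in a channel.

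The 10 genes, the pathway lists and the markers were chosen with earlier results of these data known. Named were all 10 genes with their kept probes, in each list the gene with the largest ratio in either Atg7-deficient genotype and those called on the direct arrays, the 2 nearest genes, Nfe2l2, Atg7 and markers. Socs3, Stat3, Id1, Smad1 and other genes named beside these were chosen after their values were seen. The fit was tested on simulated data. Alternatives covered background correction, normalisation, slide and set blocks, dye, filter, probe choice and each experiment left out. Some genes that the rules select are not reported here.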

Additional observations from a re-analysis of the deposited data

Results flagged for a closer look

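Blvrb was singled out because its ratio in the double knockout differed from the sum of the single knockouts, at -2.0 (SE 0.16; limma adjusted p = 0.0236). It was lower than that sum in both sets of experiments, at -2.10 in experiments 1 to 3 and -1.90 in experiments 4 to 6. These values come from the experiments behind that estimate, so they are no separate test of it. No wild-type level of the 10 genes stood apart from the other 5 by Dixon's test. That test looks for 1 outlying channel, so it cannot show a split between experiments 1 to 3 and 4 to 6.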

How the results depend on the processing

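The counts of called genes in Atg7 cKO (7) and in the Nrf2 KO (0) stayed within 1.5 times under every alternative run. In the double knockout against wild type the 7 calls ranged from 4 to 8 when 1 experiment was left out, and stayed within 1.5 times under the other alternatives. On the direct arrays the 6 calls became 1 with experiments 7 and 8 alone in the fit and ranged from 2 to 6 when 1 experiment was left out. Through wild type the 6 became 1 on processed signals, 2 with slide as a block and 2 on the value table, and 1 to 4 with 1 experiment left out. The 1 departure from additivity became 0 on processed signals, with slide as a block and on the value table, 2 with set as a block, 5 in the fit over single arrays with a dye effect, and 0 to 1 with 1 experiment left out. Fech in Atg7 cKO turned from -0.03 to 0.42 under median centring, which raised the median of all genes by 0.21, and by 0.14 in the double knockout. Over all genes, 812 were called through wild type against 212 on processed signals, 206 with slide as a block and 80 without experiment 1 or 4, and 118 departed from additivity against 5, 0 and 2. Through wild type the share of calls that were higher was 35.3%, against 13.8% under median centring and 23.1% on processed signals. On the direct arrays 2426 genes were called, against 106 with experiments 7 and 8 alone and 301 without experiment 7. Median centring and loess could not be run on experiments 7 and 8, and scaling their ratios to a common size was run in place. The comparisons share no replicate number, so none were paired by number, and the block for set, experiments 1 to 3 against 4 to 6, was the blocked fit that was run. For the other causes, the cause was not tested. The dimmest of the 10 genes, Tfrc, had 10 spots and signals of 97.1 to 280 over the 4 genotypes, where the 50 added by normexp compresses ratios.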
